A study of Mus musculus with 9 samples.

Results

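The glucocorticoid activation and response genes are 9 of the 17482 genes in the table: Hsd11b1, Nr3c1, Nr3c2, Fkbp5, Fam107a, Tsc22d3, Sgk1, Per1 and Zbtb16. They were chosen by symbol, and all 9 were found and measured above the low-value filter. Fam107a and Hsd11b1 were picked because their values were higher in the Yap1-floxed groups, so everything given for these 2 genes is a description with no test, in every comparison. The other 7 genes were tested.

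Glucocorticoids are adrenal steroid hormones that enter cells and bind a pair of related nuclear receptors, the glucocorticoid receptor (Nr3c1) and the mineralocorticoid receptor (Nr3c2), which then act on genes such as Fkbp5, Tsc22d3, Sgk1, Per1 and Zbtb16. How much active hormone a cell holds depends on enzymes as well as on blood levels: the product of Hsd11b1 regenerates active corticosterone from its inert keto form, and the product of Hsd11b2 inactivates it. In the developing cerebellum, active glucocorticoid restrains the division of granule neuron progenitors, and Hedgehog signalling in those progenitors is known to induce Hsd11b2.

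RNA from mouse tumour tissue, listed under the tissue name MB, was sequenced in bulk at P8/P9 after birth, in 9 libraries that form 3 groups of 3. SG tumours have the genotype fSMO-M2;hGFAPcre, in which Cre made under the human GFAP promoter switches on SMO-M2, an active form of the Hedgehog signal transducer Smoothened. YSGr and YSGnr tumours have the genotype fYap1;fSMO-M2;hGFAPcre, which adds a floxed allele of Yap1, the coactivator of the Hippo pathway, and are marked as rescued and non-rescued. All 3 groups thus share the SMO-M2 allele and the Cre driver, and no group lacks them. The labels do not define rescue, give no sex, and do not say whether libraries came from separate animals, so a p-value here reflects library-to-library spread, part of which may be technical.

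Values are log2 CPM (read counts corrected for library size, on a log2 scale), as deposited. Yap1 was 5.04, 5.11 and 5.03 in SG 1 to 3, 4.44, 3.31 and 2.79 in YSGr 1 to 3, and 2.79, 2.57 and 1.99 in YSGnr 1 to 3, which matches the labels and shows that Yap1 RNA was reduced least in YSGr 1. Depth was 17.3 to 29.2 M (mega) reads in 8 libraries and 9.66 M in YSGnr 1, where Yam1 and Lars2, named after their values were seen, took 63.4% of the reads. Markers of Hedgehog-driven granule progenitors (Gli1, Ptch1, Atoh1 and 7 others) were detected in every library, with a summed level of 1465 to 3557 CPM. YSGr 3 stood apart from YSGr 1 and YSGr 2 in these markers: their median difference from the SG mean was -0.042 in YSGr 3, against -0.97 and -1.39 log2 units. Xist was 9.81 to 10.81 log2 CPM in YSGr 1 to 3 and YSGnr 1, and -1.38 to -0.25 in the other 5 libraries. The Y-linked gene Ddx3y was at -3.52, the lowest log2 CPM that occurs, in the 4 libraries with high Xist and at 4.97 to 5.99 in the others. For YSGr against SG, the group and these sex-linked transcripts cannot be told apart. In YSGr against YSGnr they are mixed in part, since YSGnr 1 alone of its group had high Xist. With YSGnr 1 left out, group and sex-linked transcripts cannot be told apart in that comparison either.

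Promoter sequence was read for the members to show which carry, near a transcript start, the DNA element that dimers of both receptors bind. RefSeq windows (GRCm38.p6, 250 bases before to 50 after a transcript start) were held for 7 of the 9 members, with none for Nr3c1 and Zbtb16. The full palindromic element was searched as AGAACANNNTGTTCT and a relaxed form, which contains the full one, as GNACANNNTGTNC. The E-box CACGTG, the element of the circadian activators, was searched as well, and since all 3 patterns are palindromes each search covers both strands. The 4 windows below are 1 of the 2 overlapping Fam107a windows that hold a receptor element, the Sgk1 window that holds one, the Per1 window that holds an E-box, and the single Hsd11b1 window. Matches are in capitals.
Fam107a promoter, chr14:8309730-8310029, minus strand: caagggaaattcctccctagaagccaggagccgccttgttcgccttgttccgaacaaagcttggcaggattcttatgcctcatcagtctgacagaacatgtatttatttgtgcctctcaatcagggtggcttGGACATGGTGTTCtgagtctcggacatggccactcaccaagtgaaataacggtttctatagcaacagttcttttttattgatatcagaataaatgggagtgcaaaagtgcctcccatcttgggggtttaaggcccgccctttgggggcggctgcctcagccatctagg
Sgk1 promoter, chr10:21993640-21993939, plus strand: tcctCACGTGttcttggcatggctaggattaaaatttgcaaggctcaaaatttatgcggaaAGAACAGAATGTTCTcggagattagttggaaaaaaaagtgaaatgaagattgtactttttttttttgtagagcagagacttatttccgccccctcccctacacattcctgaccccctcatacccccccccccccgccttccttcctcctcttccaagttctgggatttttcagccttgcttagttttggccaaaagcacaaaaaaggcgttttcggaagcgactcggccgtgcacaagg
Per1 promoter, chr11:69098699-69098998, plus strand: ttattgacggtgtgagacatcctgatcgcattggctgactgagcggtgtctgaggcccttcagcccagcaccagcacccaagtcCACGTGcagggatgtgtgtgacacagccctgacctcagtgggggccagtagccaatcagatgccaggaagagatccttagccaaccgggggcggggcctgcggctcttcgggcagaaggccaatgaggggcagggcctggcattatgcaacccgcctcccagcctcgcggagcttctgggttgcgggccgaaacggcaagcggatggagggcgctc
Hsd11b1 promoter, chr1:193242311-193242610, minus strand: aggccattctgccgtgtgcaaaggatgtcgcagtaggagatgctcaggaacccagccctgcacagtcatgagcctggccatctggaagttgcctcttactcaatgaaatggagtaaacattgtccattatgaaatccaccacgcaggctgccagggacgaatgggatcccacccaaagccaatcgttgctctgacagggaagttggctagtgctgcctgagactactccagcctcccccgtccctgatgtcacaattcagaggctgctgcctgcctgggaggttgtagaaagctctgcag

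The full element was found in 1 of 17 member windows, which is 1 of the 6 windows of Sgk1, where it starts 189 bases before the transcript start. It is present in 3 of all 32851 windows, or 0.00913%. The relaxed element occurs in 0.475% of all windows and, among the members, in this Sgk1 window and in 2 overlapping Fam107a windows, where it starts 118 and 120 bases before the start. An E-box is held by 7.15% of all windows and by 1 window each of Sgk1, Per1 and Fkbp5, at 246, 166 and 169 bases before the start. The Hsd11b1 window holds none of these patterns. A match is a string of letters and does not show that a receptor sits there in these tumours. Sequence outside these windows was not searched, so a window without a match does not show that its gene lacks the element.

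Across the 7 tested members, the data showed no uniform shift towards higher or lower glucocorticoid-response transcripts. A gene was called when limma's Benjamini-Hochberg adjusted p over all 15251 tested genes was below 0.05. For YSGr against SG, 0 of the 7 were called, against 10.5% of all tested genes; 4 had an unadjusted p below 0.05, and limma voom on back-calculated reads called 2 (Nr3c2 and Sgk1). The 3 libraries of each group did not overlap for 5 of the 7, with Tsc22d3, Sgk1 and Per1 higher and Nr3c2 and Fkbp5 lower, against 36.8% of all tested genes. For YSGnr against SG, limma called 0 of the 7 against 3.36% of all genes, 1 had an unadjusted p below 0.05, and voom called 0. Libraries did not overlap for Tsc22d3 (higher) and Fkbp5 (lower), 2 of the 7, against 38.2% of all genes. For YSGr against YSGnr, limma called 0 of the 7 against 5.97% of all genes, 2 had an unadjusted p below 0.05, voom called 0, and only Sgk1 did not overlap, against 22.5% of all genes. The median log2 fold change of the 7 was 0.23, 0.020 and 0.0030 in these 3 comparisons, and that of all tested genes was -0.024, -0.0088 and 0.0070. An unadjusted p below 0.05 was held by 3987, 3909 and 5170 of all 15251 genes, in the same order. Counts at that level, here and in the lists below, are read against these. Voom counts are given without their share of all genes and are not read as particular to any list. The comparisons share libraries and are not independent of each other. Leaving out a library moved the calls over all genes as well, so counts below under such an omission are read against its own share. Without YSGr 3, limma called 27.9% of all genes for YSGr against SG, 17.3% for YSGnr against SG and 42.8% for YSGr against YSGnr, and without YSGnr 1 it called 15.7%, 21.8% and 31%. Without an SG library, YSGr 1 or YSGr 2 the share was at most 2.73% in any comparison.

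**Figure D1:**
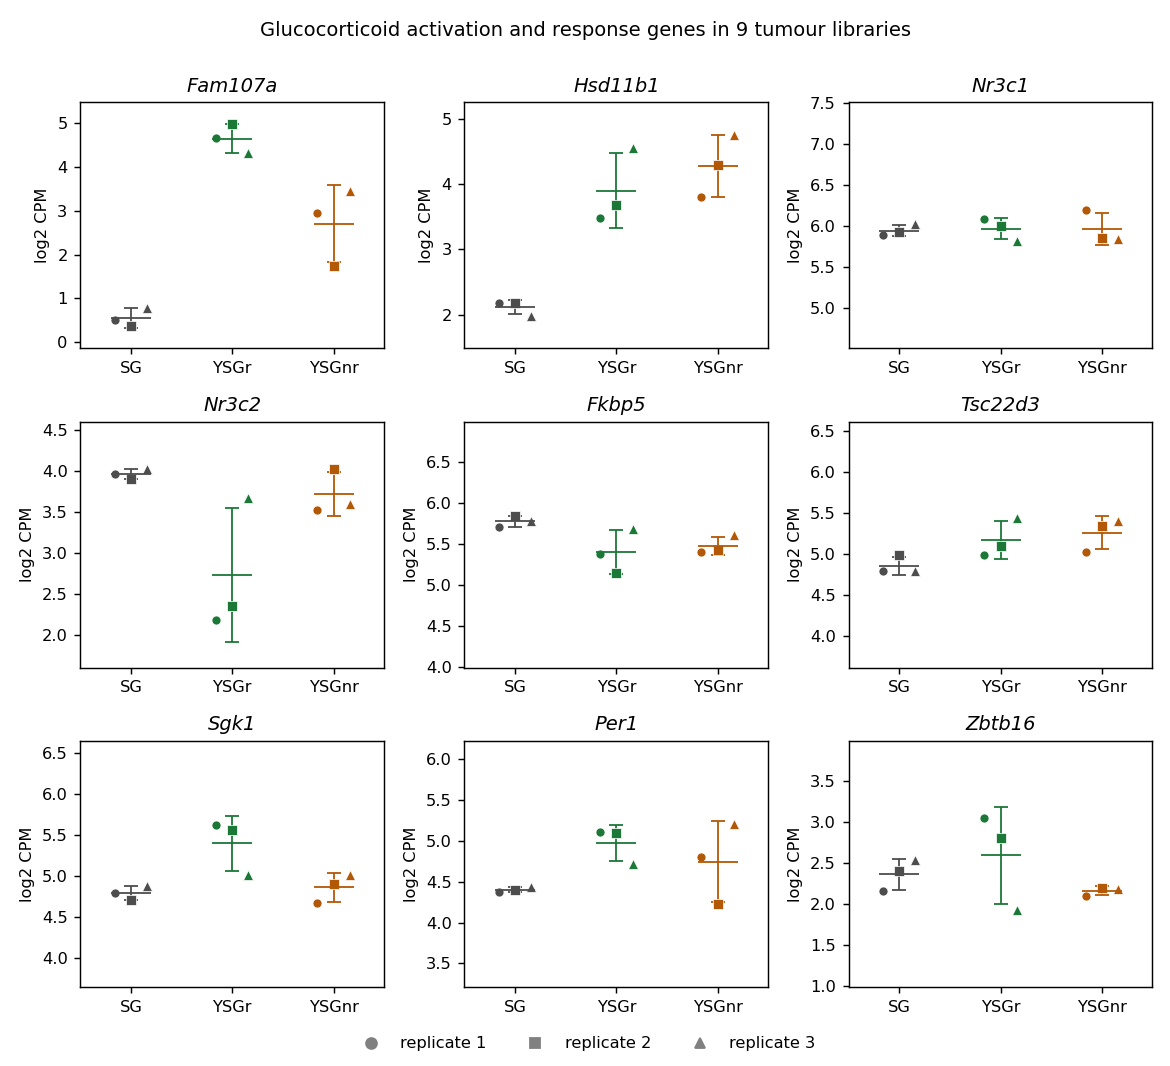
Level of each of the 9 genes in log2 CPM (vertical axes, each with its own range) in the 3 libraries of SG, YSGr and YSGnr (points; the line is the mean and the bars 1 SD). Fam107a and Hsd11b1 lie higher in all 6 Yap1-floxed libraries than in SG, Nr3c1 lies at 5.83 to 6.20 throughout, and YSGr 3 lies away from YSGr 1 and YSGr 2 for Nr3c2, Sgk1 and Zbtb16.

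The hormone-activating enzyme came first in the pathway and was one of the genes picked on its values. Hsd11b1 (chromosome 1, 193221634 to 193264075, minus strand, GRCm38) was 2.17, 2.17 and 1.99 log2 CPM in SG 1 to 3, 3.47, 3.68 and 4.55 in YSGr 1 to 3, and 3.79, 4.29 and 4.75 in YSGnr 1 to 3. Every Yap1-floxed library was above every SG library, and the YSGr and YSGnr libraries overlapped. Group means were 2.11 ± 0.11 (SD, n = 3) in SG, 3.90 ± 0.57 in YSGr and 4.28 ± 0.48 in YSGnr, which is 3.45-fold and 4.49-fold of SG on this scale. The SG values rest on 80 to 125 reads and the YSGnr 1 value on 54 reads of a shallower library. Because tissue was sequenced in bulk, more cells that carry a transcript and more transcript per cell cannot be told apart, here or for any gene below.

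The opposing enzyme followed another pattern. Hsd11b2, which inactivates corticosterone, was 5.13, 5.49 and 5.12 log2 CPM in SG 1 to 3, 3.71, 3.23 and 6.17 in YSGr 1 to 3, and 5.79, 5.74 and 6.06 in YSGnr 1 to 3. YSGr 1 and YSGr 2 were below every other library, while YSGr 3 was the highest of the 9. The log2 fold change of YSGr against SG was -0.88 (SE 0.61, adjusted p = 0.416), and without YSGr 3 it was -1.78 (adjusted p = 0.000475). The progenitor marker median named above split YSGr 3 from YSGr 1 and YSGr 2 in the same way, and its part in the Hsd11b2 values was not tested. H6pd, which supplies the NADPH that the Hsd11b1 enzyme uses and is named after its values were seen, was 3.35, 3.51 and 3.31 in SG, 3.95, 3.85 and 4.15 in YSGr and 3.90, 3.32 and 3.53 in YSGnr. H6pd was thus above SG in every YSGr library, but its difference of 0.59 (SE 0.18) missed the threshold (adjusted p = 0.0685).

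The 7 other genes of glucocorticoid metabolism and transport (Hsd11b2, H6pd, Srd5a1, Abcb1a, Abcb1b, Cyp11a1 and Star) gave 0 calls in each of the 3 limma comparisons. For YSGr against SG, YSGnr against SG and YSGr against YSGnr, 1, 0 and 3 of them had an unadjusted p below 0.05, voom called 1, 0 and 0, and limma without YSGr 3 called 2, 1 and 4 of 7, against 27.9%, 17.3% and 42.8% of all genes. The median log2 fold change of the 7 was -0.015, 0.12 and 0.011. With all libraries limma called 10.5%, 3.36% and 5.97% of all tested genes in these comparisons. Srd5a1, a steroid reductase that breaks down corticosterone, averaged 4.81 ± 0.066 in SG, 4.48 ± 0.37 in YSGr and 4.94 ± 0.23 in YSGnr.

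The 2 receptors differed from each other. Nr3c1, the glucocorticoid receptor (chromosome 18, 39410545 to 39519421, minus strand), was 5.89, 5.93 and 6.02 log2 CPM in SG 1 to 3, 6.08, 6.003 and 5.83 in YSGr 1 to 3, and 6.20, 5.86 and 5.85 in YSGnr 1 to 3. All 9 libraries lay between 5.83 and 6.20, and the groups overlapped. The log2 fold change was 0.023 for YSGr against SG (SE 0.14, 95% interval -0.29 to 0.34, adjusted p = 0.939), 0.020 for YSGnr against SG (interval -0.29 to 0.33, adjusted p = 0.937) and 0.0030 for YSGr against YSGnr (interval -0.31 to 0.32, adjusted p = 0.989). Its sign turned under several alternatives, so Nr3c1 is given no direction. With a trend of transcript length and GC removed from each library, YSGnr against SG moved to 0.42 (adjusted p = 0.0502), above the upper bound of its interval, and YSGr against SG to 0.15 (adjusted p = 0.378).

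Nr3c2, the mineralocorticoid receptor, which binds corticosterone at lower hormone levels (chromosome 8, 76899442 to 77245012, plus strand), was 3.97, 3.91 and 4.03 log2 CPM in SG 1 to 3, 2.18, 2.36 and 3.67 in YSGr 1 to 3, and 3.53, 4.03 and 3.60 in YSGnr 1 to 3. All YSGr libraries were below all SG libraries, but YSGr 3 was only slightly lower and lay within the range of YSGnr. The log2 fold change of YSGr against SG was -1.23 (SE 0.35, 95% interval -2.02 to -0.44, adjusted p = 0.0542), just short of the threshold. Without YSGr 3 it was -1.70 (adjusted p = 0.000486), and voom gave -1.28 (adjusted p = 0.0301). YSGr against YSGnr gave -0.98 (SE 0.35, adjusted p = 0.0970) and, without YSGr 3, -1.45 (adjusted p = 0.000766). For YSGnr against SG the value was -0.25 (interval -1.04 to 0.54, adjusted p = 0.669).

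Genes of the receptor complex, 18 chaperones and coregulators that fold the receptors or carry their effect on transcription, gave 0 calls by limma against SG in either Yap1-floxed group. In YSGr 4 of them had an unadjusted p below 0.05 and voom called 0; in YSGnr these counts were 10 and 1. Without YSGnr 1, limma called 11 of the 18 for YSGnr against SG, against 21.8% of all genes, and without YSGr 3 it called 4, against 17.3%. The median log2 fold change of the 18 was -0.072 for YSGr and -0.29 for YSGnr. With all libraries limma called 10.5% and 3.36% of all tested genes in these 2 comparisons. An unadjusted p below 0.05 was held by 3987 and 3909 of 15251 genes. Hsp90ab1, a chaperone that holds the receptors ready for hormone, averaged 11.08 ± 0.089 in SG, 11.04 ± 0.25 in YSGr and 11.08 ± 0.24 in YSGnr. Hspa8, the constitutive Hsp70 chaperone that loads them, was 10.34, 10.34 and 10.28 in SG, 10.83, 10.72 and 11.54 in YSGr and 11.16, 11.64 and 11.87 in YSGnr. All Yap1-floxed libraries were above SG for Hspa8, with a log2 fold change of 1.24 for YSGnr against SG (SE 0.29, adjusted p = 0.0503). The coactivator Ncoa3 was the 1 call of the list between the Yap1-floxed groups, against 5.97% of all genes. It was higher in YSGr than in YSGnr by 0.85 log2 units (SE 0.21, adjusted p = 0.0486), and the call was lost without any single SG library, YSGr 1, YSGr 2, YSGnr 2 or YSGnr 3, with adjusted p of 0.0887 to 0.204. Without YSGr 3 or YSGnr 1 the list gave 6 and 7 calls of 18, against 42.8% and 31% of all genes.

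Fkbp5 encodes the co-chaperone that lowers the receptor's affinity for hormone and is itself a standard glucocorticoid-induced gene (chromosome 17, 28399094 to 28517527, minus strand). It was 5.70, 5.84 and 5.78 log2 CPM in SG 1 to 3, 5.37, 5.15 and 5.68 in YSGr 1 to 3, and 5.40, 5.43 and 5.60 in YSGnr 1 to 3. Every Yap1-floxed library was below every SG library, the closest being YSGr 3 at 5.68 and SG 1 at 5.70. The log2 fold change was -0.37 for YSGr against SG (SE 0.15, 95% interval -0.72 to -0.029, adjusted p = 0.159) and -0.30 for YSGnr against SG (interval -0.64 to 0.047, adjusted p = 0.246), neither past the threshold. Without YSGr 3 the first was -0.52 (adjusted p = 0.0165).

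Fam107a, an actin-binding stress protein whose gene responds to glucocorticoids in brain (chromosome 14, 8296274 to 8318023, minus strand), had the largest difference of the 9 genes between YSGr and SG, on values that had picked it. It was 0.50, 0.36 and 0.79 log2 CPM in SG 1 to 3, 4.66, 4.98 and 4.32 in YSGr 1 to 3, and 2.95, 1.73 and 3.45 in YSGnr 1 to 3. The 3 groups did not overlap, in the order SG, YSGnr, YSGr. Means were 0.55 ± 0.22 (SD, n = 3), 4.65 ± 0.33 and 2.71 ± 0.89, so that YSGr was 17.2-fold and YSGnr 4.47-fold of SG, and YSGr 3.84-fold of YSGnr. The log2 difference of YSGr from SG, 4.10 as deposited, was 3.41 on a log2(CPM + 1) scale. In reads these are 24 to 53 in SG, 453 to 847 in YSGr and 30 to 227 in YSGnr, the 30 coming from the shallow YSGnr 1. Unlike Nr3c2 and Hsd11b2, Fam107a in YSGr 3 lay with the other YSGr libraries.

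Tsc22d3, or GILZ, which mediates anti-inflammatory effects of glucocorticoids and lies on chromosome X (140539528 to 140600659, minus strand), was 4.79, 4.98 and 4.79 log2 CPM in SG 1 to 3, 4.99, 5.09 and 5.43 in YSGr 1 to 3, and 5.02, 5.33 and 5.40 in YSGnr 1 to 3. Each Yap1-floxed library was above each SG library, the closest being YSGr 1 at 4.99 and SG 2 at 4.98. The log2 fold change was 0.32 for YSGr (SE 0.16, adjusted p = 0.258) and 0.40 for YSGnr (SE 0.16, 95% interval 0.034 to 0.77, adjusted p = 0.167). Without the shallow YSGnr 1 the second became 0.52 (adjusted p = 0.0496). Xist was high in YSGr 1 to 3 and YSGnr 1 only, and the part of sex-linked differences in this X-linked gene was not tested. Fkbp5 and Tsc22d3, both widely used as readouts of receptor activity, lay on opposite sides of SG in the same libraries, by small margins. Neither was called with all libraries. Groups did not overlap for 36.8% of all genes in YSGr against SG and for 38.2% in YSGnr against SG.

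Sgk1, a kinase that controls ion channels and transporters and has the full element shown above in 1 of its 6 promoter windows (chromosome 10, 21882184 to 21999903, plus strand), was 4.79, 4.71 and 4.87 log2 CPM in SG 1 to 3, 5.62, 5.56 and 5.01 in YSGr 1 to 3, and 4.66, 4.90 and 5.01 in YSGnr 1 to 3. YSGr 1 and YSGr 2 were the highest libraries, YSGr 3 and YSGnr 3 were nearly equal at 5.01, and SG and YSGnr overlapped. YSGr against SG gave 0.61 (SE 0.18, 95% interval 0.20 to 1.02, adjusted p = 0.0628), and YSGr against YSGnr 0.54 (SE 0.18, adjusted p = 0.0864). The first passed the threshold without YSGr 3 (0.80, adjusted p = 0.00317), without YSGnr 1 (0.61, adjusted p = 0.0455) and with voom (0.61, adjusted p = 0.0457). YSGnr against SG gave 0.069 (interval -0.34 to 0.48, adjusted p = 0.831).

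Per1, the clock repressor that glucocorticoids induce acutely (chromosome 11, 69095217 to 69109960, plus strand), was 4.37, 4.39 and 4.43 log2 CPM in SG 1 to 3, 5.10, 5.09 and 4.72 in YSGr 1 to 3, and 4.80, 4.22 and 5.20 in YSGnr 1 to 3. Every YSGr library was above SG, whereas YSGnr held both the lowest and the highest value of the 9. The log2 fold change was 0.57 for YSGr against SG (SE 0.23, adjusted p = 0.155) and 0.35 for YSGnr against SG (SE 0.23, adjusted p = 0.360). Fitted on the 6 libraries of SG and YSGr alone, with the spread of YSGnr left out of the estimate, the first gave the same difference with an adjusted p of 0.0444.

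Zbtb16, or PLZF, a zinc-finger repressor that glucocorticoids induce in many cell types (chromosome 9, 48654297 to 48836222, minus strand), was 2.15, 2.40 and 2.53 log2 CPM in SG 1 to 3, 3.05, 2.80 and 1.92 in YSGr 1 to 3, and 2.09, 2.19 and 2.18 in YSGnr 1 to 3. YSGr spanned the whole range, with its libraries 1 and 2 the highest and YSGr 3 the lowest of all. No comparison passed the threshold (log2 fold changes of 0.23, -0.20 and 0.43, adjusted p of 0.672, 0.667 and 0.291). Without YSGr 3 the difference between YSGr and YSGnr was 0.77 (adjusted p = 0.0136).

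**Figure D2:**
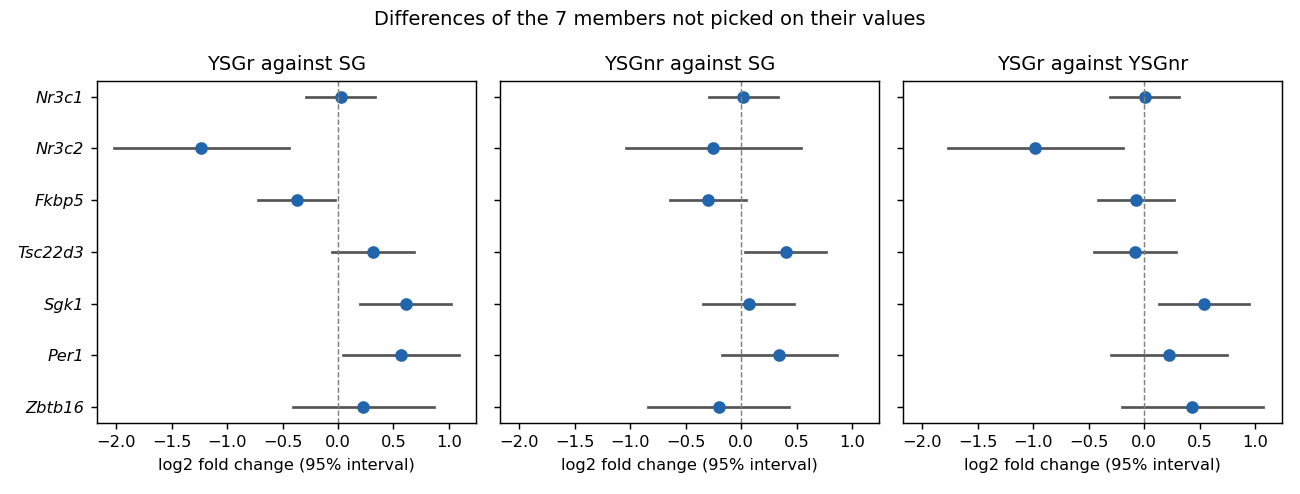
Log2 fold changes (points) with 95% intervals (lines) of the 7 tested genes in the 3 comparisons; the dashed line marks no difference. Intervals leave out 0 for Nr3c2, Fkbp5, Sgk1 and Per1 in YSGr against SG, for Tsc22d3 in YSGnr against SG, and for Nr3c2 and Sgk1 in YSGr against YSGnr, but none of the 7 genes was called after adjustment over all genes.

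The library YSGr 3 thus set several of these outcomes. With YSGr 3 left out, 3 of the 7 members were called for YSGr against SG (Nr3c2, Fkbp5 and Sgk1) against 27.9% of all genes, and 3 for YSGr against YSGnr (Nr3c2, Sgk1 and Zbtb16), against 42.8%. With both YSGr 3 and YSGnr 1 left out, a choice made with earlier results of these data known, the counts were 5 and 4 of 7, against 49.5% and 64.7% of all genes, and 1 for YSGnr against SG, against 52.9%. The counts for YSGr against SG are above the share of all genes and the others near it or below it, and none is read as particular to the members. Over all genes the same omission of YSGr 3 moved the calls for YSGr against SG from 1608 to 4257. YSGr 3 also had the lowest Yap1 of its group, 2.79 log2 CPM.

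**Figure D3:**
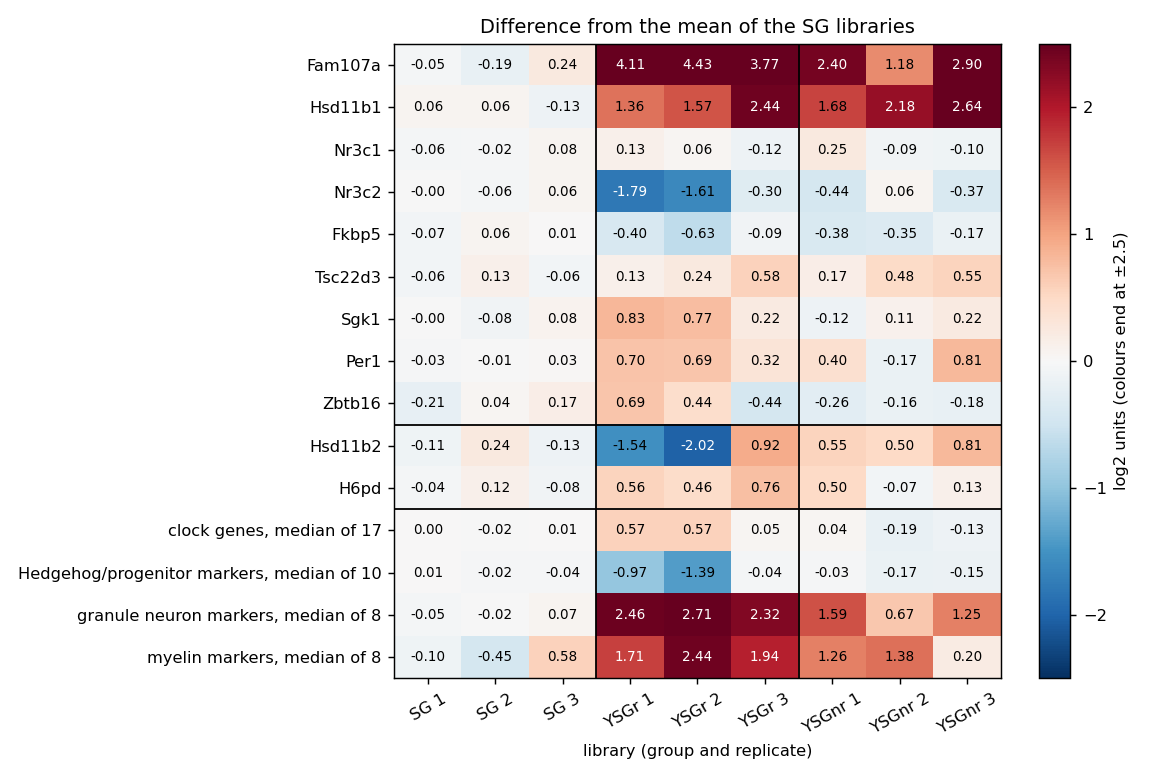
Difference of each library from the SG mean in log2 units (numbers and colours; colours end at 2.5 in either direction) for the 9 genes, Hsd11b2 and H6pd, and, as medians over their genes, 4 further lists. YSGr 3 departs from YSGr 1 and YSGr 2 in Nr3c2, Zbtb16, Hsd11b2 and the medians of the clock and the Hedgehog progenitor markers. It does not depart in Fam107a or the median of the granule neuron markers. That median hides Neurod1 and Etv1, which in YSGr 3 lie within the range of SG but are higher in YSGr 1 and YSGr 2. The other 6 granule neuron markers lie above SG in every YSGr library.

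A wider list of 29 other genes known to respond to glucocorticoids was read next. Of these, 28 were found and 27 tested, and Lcn2 was not analysed here. For YSGr against SG 3 of 27 rose, 0 fell and 24 did not pass the test, with a median log2 fold change of 0.16. This is near the 10.5% of all tested genes called in that comparison and does not set the list apart. Klf9, a transcription factor induced by glucocorticoids and thyroid hormone, was 5.55, 5.86 and 5.98 log2 CPM in SG 1 to 3, 7.18, 7.02 and 6.46 in YSGr 1 to 3, and 6.50, 6.29 and 6.36 in YSGnr 1 to 3. All Yap1-floxed libraries were above SG, and Klf9 rose by 1.09 in YSGr (SE 0.20, adjusted p = 0.0127). Rhob, an endosomal GTPase, rose by 0.64 (SE 0.13, adjusted p = 0.0203), and Cdkn1a, the cell-cycle inhibitor p21, rose by 0.48 (SE 0.13, adjusted p = 0.0413). Each of these calls was lost without YSGr 1 or without YSGr 2, with adjusted p between 0.0560 and 0.171. Without SG 1 the list gave 0 calls, without SG 2 or SG 3 it gave 1, and without YSGr 3 or YSGnr 1 it gave 7, against 27.9% and 15.7% of all genes.

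For YSGnr against SG 0 of the 27 were called by limma, 8 had an unadjusted p below 0.05, voom called 1, and the median was 0.20, against 3.36% of all genes called. Without YSGr 3 or YSGnr 1, limma called 4 and 5, against 17.3% and 21.8%. Glul, the glutamine synthetase of astrocytes, averaged 8.30 in SG and 8.26 in YSGnr, and Rhob 6.95 and 7.19. Between the Yap1-floxed groups, where 5.97% of all genes were called, Hif3a, a hypoxia-inducible factor subunit that glucocorticoids induce, was the 1 call. It was 2.55, 2.25 and 0.77 in YSGr 1 to 3 and 0.15, -0.99 and -0.15 in YSGnr 1 to 3, a difference of 2.19 (SE 0.49, adjusted p = 0.0412). The call was lost without any library but YSGr 3 or YSGnr 1, and without those the list gave 7 and 8 calls of 27, against 42.8% and 31% of all genes. Direction was mixed within the list. Pdk4, a classical glucocorticoid-induced kinase of mitochondria named after its values were seen, was 2.64, 2.35 and 2.32 in SG 1 to 3, 1.15, 1.58 and 1.83 in YSGr 1 to 3 and 1.12, 1.57 and 1.73 in YSGnr 1 to 3. Every Yap1-floxed library was lower than SG for Pdk4, at a log2 fold change of -0.92 (adjusted p = 0.0537) in YSGr and -0.96 (adjusted p = 0.0710) in YSGnr. The metallothionein Mt1, also named after its values were seen, was 4.59, 4.75 and 4.81 in SG 1 to 3, 4.45, 4.14 and 4.77 in YSGr 1 to 3 and 4.65, 5.23 and 5.80 in YSGnr 1 to 3. Both Yap1-floxed groups overlapped SG for Mt1, and no comparison called it.

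Because Per1 belongs to the clock as well, 17 other circadian genes were read. For YSGr against SG 4 of 17 rose, 0 fell and 13 did not pass, against 10.5% of all genes called, with a median of 0.44. Arntl, the core activator, was 4.42, 4.30 and 4.13 log2 CPM in SG 1 to 3, 5.41, 5.43 and 4.72 in YSGr 1 to 3, and 4.04, 4.24 and 4.27 in YSGnr 1 to 3. It rose by 0.90 in YSGr (SE 0.20, adjusted p = 0.0247), and Nr1d1, the repressor of Arntl, rose by 0.86 (SE 0.22, adjusted p = 0.0364). Dbp, an output gene of the clock, was 3.85, 3.83 and 3.86 in SG, 4.42, 4.46 and 4.90 in YSGr and 4.60, 4.54 and 4.66 in YSGnr. Dbp was above SG in all 6 Yap1-floxed libraries and rose by 0.75 in both groups (adjusted p = 0.0193 in YSGr and 0.0363 in YSGnr). Ciart, a clock repressor, rose by 0.80 in YSGr (SE 0.22, adjusted p = 0.0478). Dbp was the 1 call of 17 in YSGnr, against 3.36% of all genes, with a median of -0.10. Against 5.97% of all genes, Arntl and Nr1d1 were the 2 calls between YSGr and YSGnr (1.00, adjusted p = 0.0354, and 0.88, adjusted p = 0.0475). The list gave 0 calls for YSGr against SG without SG 1, SG 2, SG 3 or YSGr 2, 1 without YSGr 1, 2 without YSGnr 3 and 7 without YSGr 3, the last against 27.9% of all genes. The calls of Dbp in YSGnr, and of Arntl and Nr1d1 between YSGr and YSGnr, were each lost without any SG library, YSGr 1, YSGr 2, YSGnr 2 or YSGnr 3. By library the median of the 17 was 0.57 and 0.57 above the SG mean in YSGr 1 and YSGr 2, 0.054 in YSGr 3, and -0.19 to 0.040 in YSGnr.

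Immediate early genes, which respond within minutes to stimulation, were read because several also respond to stress hormones. Of 14, 12 were tested; for YSGr against SG 0 rose and 2 fell, against 10.5% of all genes called, with a median of -0.24. Egr1, a growth-factor-induced transcription factor, was 5.72, 4.12 and 5.05 log2 CPM in SG 1 to 3, 2.68, 2.63 and 3.18 in YSGr 1 to 3, and 3.25, 3.18 and 3.26 in YSGnr 1 to 3. All 6 Yap1-floxed libraries were below SG. Egr1 fell by 2.13 in YSGr (SE 0.35, adjusted p = 0.00825), a call kept in all 21 alternatives run, while in YSGnr Egr1 fell by 1.73 (adjusted p = 0.0356, SE 0.35), a call lost without SG 1, SG 3, YSGr 1, YSGr 2, YSGnr 2 or YSGnr 3. Ier2, another early-response gene, fell by 0.81 in YSGr (SE 0.18, adjusted p = 0.0258), a call lost without any SG library, YSGr 1 or YSGr 2. Between the Yap1-floxed groups limma called 0 of the 12, against 5.97% of all genes, 2 had an unadjusted p below 0.05, and voom called 0. Without YSGr 3 limma called 6 of them, against 42.8% of all genes. Jun averaged 6.28 in YSGr and 6.54 in YSGnr, and Btg2 5.03 and 5.10.

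**Figure D4:**
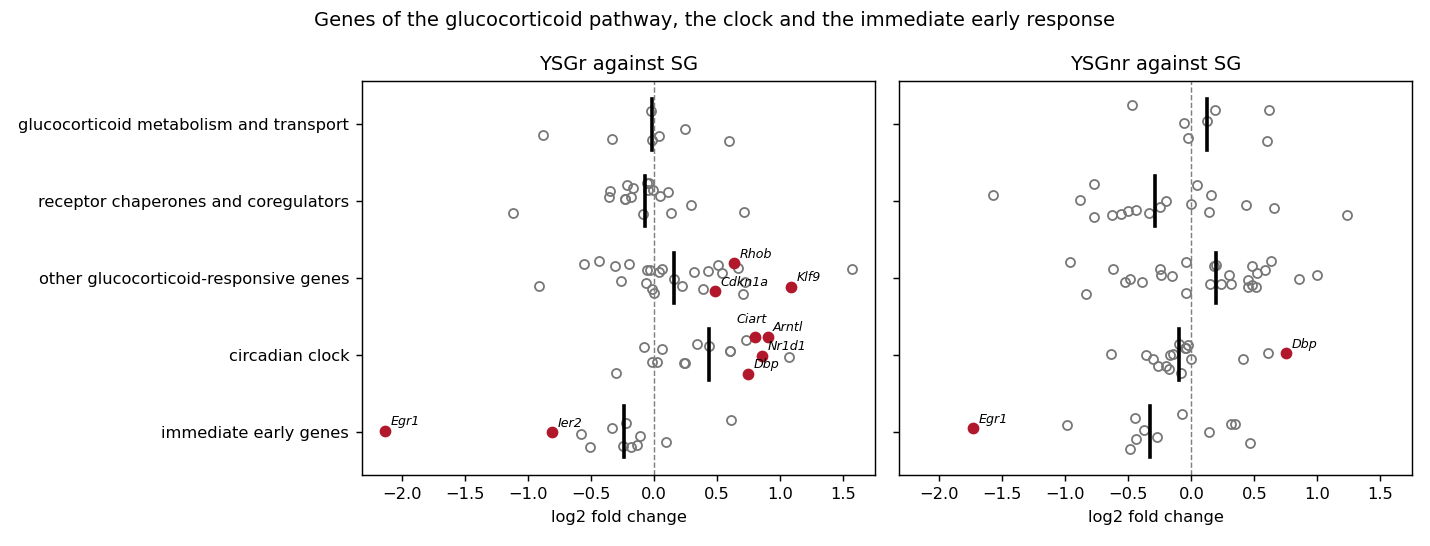
Log2 fold changes of the tested genes of 5 lists (1 circle per gene; vertical position within a list has no meaning) for YSGr and YSGnr against SG; filled circles with names passed the test and black bars are medians. The clock list has its median at 0.44 in YSGr and at -0.10 in YSGnr, and the metabolism and chaperone lists hold no filled circle.

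Markers of cell types moved alongside these genes. Over all genes limma called 10.5% for YSGr against SG, 3.36% for YSGnr against SG and 5.97% for YSGr against YSGnr. Of 8 granule neuron markers 6 rose in YSGr and 5 in YSGnr against SG, and 7 were higher in YSGr than in YSGnr by the test; their summed level was 437 to 538 CPM in SG, 911 to 1614 in YSGr and 576 to 752 in YSGnr. Of 8 myelin markers 8 rose in YSGr and 2 in YSGnr, with sums of 614 to 1174, 2498 to 3908 and 846 to 1883 CPM. Of 10 markers of Hedgehog-driven granule progenitors 4 fell in YSGr and 0 in YSGnr (limma; 0 at an unadjusted p below 0.05 and 0 by voom), with sums of 3527 to 3557, 1465 to 2931 and 3033 to 3488 CPM. Of 10 markers of astrocytes and Bergmann glia, cells known to express Fam107a, 2 rose in YSGr (Gfap and Hopx), while in YSGnr Hopx rose and Gdf10 fell, with sums of 2241 to 2353, 2053 to 3196 and 1578 to 2069 CPM. No marker of these lists was at 0 in any library. Without any 1 library, the granule neuron calls ranged from 6 to 8 in YSGr and from 2 to 5 in YSGnr, the myelin calls from 2 to 8 and 0 to 3, the progenitor calls from 0 to 8 and 0 to 2, and the astrocyte calls from 1 to 3 and 0 to 4. Over all genes, leaving out 1 library gave 2.15% to 27.9% called in YSGr and 0.125% to 21.8% in YSGnr. The 7 granule neuron calls between YSGr and YSGnr became 0 without YSGr 1, YSGr 2, YSGnr 2 or YSGnr 3 and 1 without any SG library. The share of all genes called under these last omissions was 0.00656% to 0.0656%.

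Other marker lists were counted with all libraries only. The shares of all genes called are those given above, and groups did not overlap for 36.8% of all genes in YSGr against SG. Of 6 Purkinje cell markers, 6 did not overlap and were higher in YSGr than in SG (3 rose). For YSGnr against SG the list was mixed: 2 rose by the test, but only 3 of the 6 lay above 0, with a median of -0.072. By the test 5 were higher in YSGr than in YSGnr. The Purkinje sums were 706 to 768 CPM in SG, 1144 to 1946 in YSGr and 423 to 857 in YSGnr. Of 5 erythrocyte markers, 5 did not overlap and were lower in YSGr than in SG (3 fell), and limma called 0 in YSGnr (0 at an unadjusted p below 0.05), with sums of 777 to 1118, 342 to 599 and 631 to 1058 CPM. Of 8 endothelial markers limma called 0 in YSGr (0 at an unadjusted p below 0.05), while 3 fell in YSGnr (Kdr, Flt1 and Cdh5), with sums of 242 to 266, 222 to 254 and 140 to 198 CPM. The other 5 endothelial markers were not called in YSGnr, and 2 of the 8 lay above 0 there, with a list median of -0.64. Of 10 markers of mural cells, fibroblasts and meninges, 2 rose in YSGr (Slc6a13 and Dcn) and 1 fell in YSGnr (Pdgfrb), with sums of 461 to 503, 456 to 655 and 287 to 386 CPM. Limma called 0 of 6 choroid plexus markers and 0 of 8 microglial markers against SG in either group. At an unadjusted p below 0.05 the choroid plexus counts were 1 in YSGr and 0 in YSGnr, and the microglial counts 1 and 1. The microglial sums were 172 to 193 CPM in SG, 154 to 177 in YSGr and 99.6 to 228 in YSGnr. The choroid plexus sums ran from 212 to 619 CPM within SG, from 6.34 to 983 CPM within YSGr and from 70.6 to 1584 CPM within YSGnr, and Ttr, its transthyretin transcript, from -1.01 log2 CPM in YSGr 1 to 10.51 in YSGnr 3. Groups lay in the same order, SG, YSGnr, YSGr, for the granule neuron sums and for Fam107a, but this order was not particular to granule neurons. The myelin markers had median log2 fold changes against SG of 0.86 in YSGnr and 2.04 in YSGr. Hopx averaged 4.89 in SG, 5.57 in YSGnr and 6.31 in YSGr, while its whole astrocyte and Bergmann glia list had medians of -0.30 in YSGnr and 0.16 in YSGr. The part of cell composition in the values of Fam107a and the other members was not tested.

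The genes whose pattern over the 9 libraries lay nearest to a member were found by the root mean square difference of log2 CPM after centring each gene on its own mean; this is a description over libraries that share depth and composition. Nearest to Fam107a were Gabrd, Cbln3 and Mybpc3, at 0.43, 0.47 and 0.48 log2 units. Gabrd, a subunit of GABA receptors in granule neurons, was 1.86, 1.73 and 1.60 log2 CPM in SG 1 to 3, 5.24, 5.37 and 4.85 in YSGr 1 to 3 and 4.30, 3.42 and 4.33 in YSGnr 1 to 3. Gabrd had the same order of groups as Fam107a, which follows from how it was found, by nearness to Fam107a. Gabrd and Cbln3 are both among the granule neuron markers above. Fam107a was itself picked on its values, and the cell type behind these values was not tested. Nearest to Hsd11b1 were Fam159b, Car3 and Stard10, at 0.37, 0.37 and 0.38, none of them a marker used here. Stard10, a lipid transfer protein, averaged 3.14 ± 0.067 in SG, 4.71 ± 0.10 in YSGr and 4.68 ± 0.38 in YSGnr. Fam107a and Hsd11b1 themselves differed by 1.25 log2 units by this measure.

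Fkbp5 and Tsc22d3, which varied less, had closer neighbours. Nearest to Fkbp5 were Nol10, Srsf9 and Srsf4, at 0.072, 0.073 and 0.075 log2 units, a nucleolar protein and a pair of splicing factors. Nearest to Tsc22d3 were Tmem208, Eif2b4 and Mthfsd, at 0.047, 0.049 and 0.063. No other member lay as near: the member nearest to Fkbp5 was Nr3c1, at 0.28, and the nearest to Tsc22d3 was also Nr3c1, at 0.31. The closest pair of members was Sgk1 and Zbtb16, at 0.23, which were both high in YSGr 1 and YSGr 2 and lower in YSGr 3.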

How the data were processed

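Total RNA of 9 tumour libraries (3 per group) was isolated by a Trizol-type protocol and sequenced at BGI (DNBseq), per the labels' protocols. Trimmomatic, Bowtie2, RSEM, Picard and edgeR and the build mm10 are named in the submitters' processing notes, without versions. Ribosomal RNA removal, strandedness and annotation: not given in the sources used here. In their table, the authors deposited log2 CPM, already scaled by library and with an added count that averages 2.00 reads, so fold changes of low genes are understated. Back-calculated reads were whole to within 0.02 in 60.2% to 69.3% of the low read counts, the only values checked in this way, so they are estimates.

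Here limma 3.58.1 (R 4.3.3) was fitted to the deposited log2 CPM of all 9 libraries, as group means, with moderated two-sided tests and a variance trend on the mean. The 15251 genes with log2 CPM above 0 in at least 3 libraries entered. Calls needed an adjusted p (Benjamini-Hochberg, over all of them) below 0.05. The steps were tested on simulated data. Alternatives were no filter, a filter above 1, log2(CPM + 1), median and quantile scaling, the 6 libraries alone, no trend, the replicate number as a block, each library left out, YSGr 3 and YSGnr 1 both left out, voom on back-calculated reads, and a length and GC trend removed.

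The members, lists and tests were chosen with earlier results of these data known. Besides the members, the text names Yap1, Xist and Ddx3y, up to 4 called genes per list and comparison (or 2 with the largest mean as values), the 3 nearest genes of 4 members, and genes marked as named after their values were seen; Gfap, Hopx, Gdf10, Kdr, Flt1, Cdh5, Pdgfrb, Slc6a13 and Dcn are marker list calls. Members were matched to GENCODE M21 on GRCm38, where 95.6% of symbols matched 1 gene. Replicate libraries all differed by more than sampling noise, so none was merged.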

Additional observations from a re-analysis of the deposited data

How the results depend on the processing

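Depth limits low genes most in YSGnr 1. Without single libraries, the calls over all genes ranged from 19 to 3332 for YSGnr against SG, from 328 to 4257 for YSGr against SG and from 1 to 6528 for YSGr against YSGnr, against 512, 1608 and 910 with all libraries; member calls ranged from 0 to 1, 0 to 3 and 0 to 3. With YSGr 3 and YSGnr 1 both left out the calls were 8074, 7556 and 9867, and 1, 5 and 4 members. The 6 libraries alone gave 1190 for YSGnr against SG, 0 for YSGr against YSGnr, and 1 member (Per1) for YSGr against SG. Voom gave 852 for YSGnr against SG, 1800 for YSGr against YSGnr and 2 members for YSGr against SG. For YSGr against YSGnr, median scaling gave 316, no trend 568 and removal of the length and GC trend 1714. Median and quantile scaling each called 1 member (Nr3c2) for YSGr against SG. Member counts for YSGr against SG under scaling, the 6 libraries alone and voom are given without the share of all genes. They are not read as particular to the members. The cause of these shifts was not tested.

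The replicate number as a block gave 341 calls for YSGnr against SG, 1194 for YSGr against SG and 860 for YSGr against YSGnr, and with the length and GC trend also removed 304, 1481 and 1512. Same-numbered libraries did not deviate together (correlations of -0.23 to 0.24 over genes), so the numbers were not taken as pairs.

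No tested member passed the threshold in any comparison, so all the sign changes below fall on differences that missed it. For Nr3c1, YSGnr against SG ranged from -0.095 to 0.080 without single libraries and was -0.095 without YSGr 3 and YSGnr 1 and -0.0080 with voom. Nr3c1 in YSGr against SG ranged from -0.033 to 0.095, and in YSGr against YSGnr from -0.057 to 0.12, with -0.012 under median scaling, -0.029 under quantile scaling and -0.28 with the length and GC trend removed, with or without the block. That removal also moved Nr3c1 to 0.42 for YSGnr against SG and 0.15 for YSGr against SG. With that trend removed, with or without the block, Nr3c2 was 0.037 for YSGnr against SG, and Per1 was -0.11 and Tsc22d3 0.0094 for YSGr against YSGnr. Without single libraries, YSGr against YSGnr ranged from -0.22 to 0.052 for Fkbp5, from -0.034 to 0.46 for Per1 and from -0.22 to 0.0081 for Tsc22d3, and YSGnr against SG from -0.0082 to 0.17 for Sgk1.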
